A study of Nannochloropsis oceanica with 15 samples.

Results

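A set of 110 genes of the oil-storing marine alga Nannochloropsis oceanica, out of 9756 gene models, stood higher under blue than under red light at both hours sampled. The members were chosen by measured expression. In each group of 3 libraries the median of log2(FPKM + 1) was taken, FPKM being fragments scaled to the length of the gene model and to the size of the library. A member had a blue median at least 0.4 above the red median at 12 h and again at 24 h, a blue median of at least 10 FPKM at both hours, and no group median more than 2 log2 units below white light. Blue-minus-red values therefore describe how the members were picked and are given without a test.

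All cells were wild-type IMET1, cultured in column bioreactors bubbled with air under continuous light. The 5 groups of 3 libraries were white 0 h, taken when the light was changed, and red or blue light for 12 h or for 24 h. No white-light library of 12 h or 24 h was analysed here, so colour and time cannot be told apart in a difference from white. Separate cultures are not stated for the 3 libraries of a group, and every p-value therefore reflects a spread that may be technical.

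Nannochloropsis is a single-celled stramenopile, a relative of diatoms and brown algae. Its chlorophyll a absorbs both blue and red light, while its carotenoids absorb in the blue. In stramenopile algae blue light is also read by aureochromes, which are light-sensing transcription factors, and by cryptochromes, so that blue and red light can differ both as energy and as a signal. The files pair the IDs of the members with no gene name, none of the 9756 IDs was found among the 160 organelle genes of the reference table (assembly ASM5162214v2), and the 1 model named in the files, DGAT1A, was not a member. Lists of photoreceptor, light-harvesting, pigment and oil-synthesis genes could thus not be looked up among the members, whose roles are not given. The members are described by their gene model, position and expression.

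Fragments in genes, computed back from the spacing of low FPKM values, numbered from 3130000 to 6440000 per library. Red 24 h library 1 stood apart. Its median over all models was 17.8 FPKM, against 20.3 to 25.0 in the other 14 libraries, 38.4% of its FPKM sum lay in its top 100 genes, where the others had 21.7% to 29.0%, and its fragments differed from those of red 24 h libraries 2 and 3 with a chi-square per degree of freedom of 53.4 and 86.2, against 1.32 to 5.40 for the other pairs within groups. The members were lowest in this library more often than in the other two red 24 h libraries, in 76 of 110 against 13 and 21. The same count over all tested genes was not made. As the library was low over all models, this is not read as a trait of the members. The median blue-minus-red difference of the members at 24 h was 1.16 against library 1, 0.63 against library 2 and 0.57 against library 3, while over the 9601 tested genes these medians were 0.28, -0.01 and -0.01. Set against the mean of libraries 2 and 3 alone, 94 of the 110 members were at least 0.4 higher in blue, and the lowest difference was 0.08. The choice used the red 24 h median, which is the value of library 2 or 3 wherever library 1 is lowest. The count of 94 was thus partly set by the choice.

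The differences between blue and red were moderate. At 12 h they ran from 0.40 to 1.19 on the log2(FPKM + 1) scale, with a median of 0.54 and quartiles of 0.46 and 0.65. At 24 h they ran from 0.40 to 1.78, with a median of 0.66 and quartiles of 0.51 and 0.84. Only 6 members differed by at least 1 at 12 h and 13 at 24 h, and 37 differed by less than 0.6 at both hours. The median difference over all 9601 tested genes was -0.01 at 12 h and 0.02 at 24 h. The line at 0.4 did not fall at a gap: the 2 members just inside it had a smaller difference of 0.401 each, the 2 genes just outside it had 0.399 and 0.397, and 34 members lay within 0.05 above it while 60 gene models missed it by 0.05 or less.

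**Figure D1:**
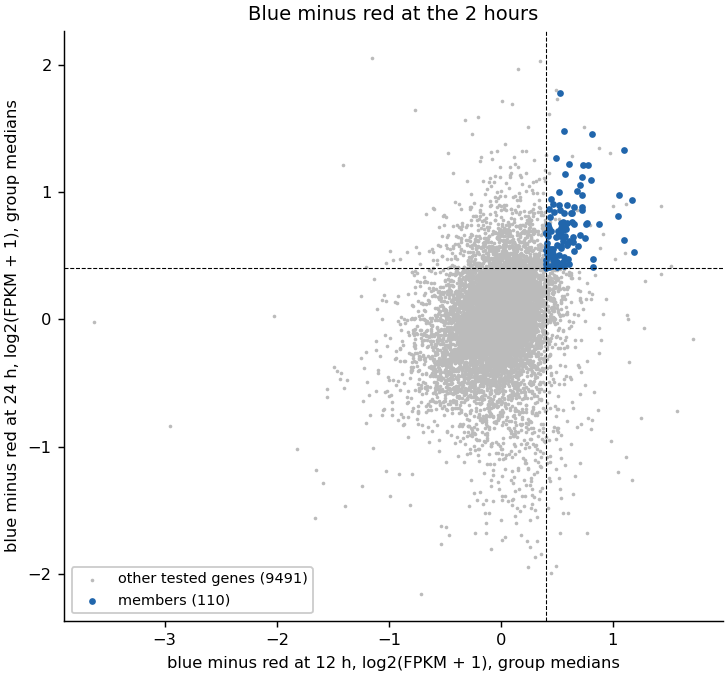
Blue minus red at 12 h (x axis) and at 24 h (y axis), as differences of group medians of log2(FPKM + 1), for the 110 members (blue points) and the other tested genes (grey), with dashed lines at 0.4. The members fill the upper right corner by choice, with medians of 0.54 and 0.66, and grey points in that corner missed the floor of 10 FPKM or the bound on white.

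All 110 members passed the filter for testing, which asked for 1 FPKM or more in 3 or more libraries, and all 110 held at least 1 FPKM in every library, so none passed through its blue libraries alone. The fewest fragments of any member in any library were 5, and the median over members of their fewest fragments was 95.5. Every blue 12 h library exceeded every red 12 h library in 103 members, against 19.9% of all tested genes. Every blue 24 h library exceeded every red 24 h library in 91 members, against 17.6% of all tested genes, and 86 members were free of overlap at both hours, against 6.92%. In the linear model fitted with limma across all genes, with an adjusted p under 0.05 as the call, 30 members were called higher in blue at 12 h (0.719% of all tested genes were) and 79 at 24 h (5.67%). The choice of the members used these contrasts, so nothing is read from these counts.

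The 2 members whose smaller blue-minus-red difference was largest were scaffold00082.g2905 (206946 to 207720, minus strand, 1 exon) and scaffold00277.g8255 (112477 to 119961, minus strand, 10 exons). Positions refer to the deposited IMET v2 models. In scaffold00082.g2905 the red 12 h libraries held 13.8, 10.9 and 12.7 FPKM and the blue 12 h libraries 28.5, 37.1 and 27.5. At 24 h its red libraries held 12.7, 13.5 and 26.6 FPKM and its blue libraries 33.5, 43.4 and 35.5. Red and blue did not overlap at either hour, although red 24 h library 3 came close to the blue values. The white libraries were far lower, with 2.37, 2.04 and 2.83 FPKM, and this model of 775 nt of exon rested there on as few as 9 fragments in a library.

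In scaffold00277.g8255, whose model has 10 exons, red 12 h libraries held 10.3, 10.4 and 10.1 FPKM and blue 12 h libraries 22.4, 22.7 and 21.2. Its red 24 h libraries held 5.47, 12.5 and 13.5 FPKM, with library 1 the lowest, and its blue 24 h libraries 26.9, 23.2 and 25.6. The blue values of both hours lay close together, and no red or white library reached them, the white values being 7.40, 6.78 and 8.93 FPKM.

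The largest differences at 12 h belonged to scaffold00127.g4401 (679406 to 681875, minus strand, 2 exons) and scaffold00324.g8966 (368802 to 369926, plus strand, 2 exons), at 1.19 and 1.18. In scaffold00127.g4401 the white libraries held 36.1, 47.5 and 49.1 FPKM, the red 12 h libraries 18.8, 19.3 and 17.4 and the blue 12 h libraries 44.1, 47.4 and 43.7. Blue 12 h thus lay within the range of white, while red 12 h lay below both. At 24 h the red libraries of this gene held 27.5, 55.7 and 47.6 FPKM and the blue ones 66.9, 68.9 and 69.4, so that red stood around the white level and blue above it. In scaffold00324.g8966, whose white libraries held 20.6, 21.5 and 19.0 FPKM, the red 12 h values of 28.2, 25.5 and 19.9 were within or above the range of white and the blue 12 h values of 56.4, 61.7 and 58.8 were above both. The blue 24 h libraries repeated that level with 57.2, 57.4 and 57.4 FPKM, and the red 24 h libraries held 50.1, 29.5 and 23.0, library 1 being the highest here.

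At 24 h the largest differences were in scaffold00354.g10187 (579205 to 583269, minus strand, 3 exons) and scaffold00330.g9408 (701440 to 707274, minus strand, 2 exons), at 1.78 and 1.48. The red 24 h libraries of scaffold00354.g10187 held 4.41, 10.0 and 18.8 FPKM against 36.8, 38.0 and 34.5 in blue. In scaffold00330.g9408 they held 12.4, 16.4 and 30.4 FPKM against 48.1, 47.6 and 46.3. In both genes red 24 h library 1 was the lowest and library 3 the highest of its group, and library 3 was still below every blue library. At 12 h the same genes were closer, with 20.3, 22.9 and 22.9 FPKM in red and 32.4, 37.0 and 33.5 in blue for scaffold00354.g10187.

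The most abundant members under blue light were scaffold00295.g8514 (527134 to 528851, minus strand, 2 exons) and scaffold00214.g6223 (507680 to 511343, plus strand, 4 exons). In scaffold00295.g8514 the blue libraries held 1952, 1787 and 1932 FPKM at 12 h and 1958, 1938 and 1959 at 24 h, the red libraries 1350.0, 1369 and 1364 at 12 h and 593, 1431 and 1553 at 24 h, and the white libraries 830.4, 959 and 969. Apart from red 24 h library 1 the 3 conditions were stacked in the order white, red and blue. In scaffold00214.g6223 the white libraries held 372, 459 and 446 FPKM, red 12 h 1279, 1299 and 1254 and blue 12 h 1889, 1821 and 1828. At 24 h its red libraries held 734, 1134 and 1157 FPKM and its blue libraries 1525, 1519 and 1519. Most of the distance from white was shared by both colours in this gene, with blue on top.

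**Figure D2:**
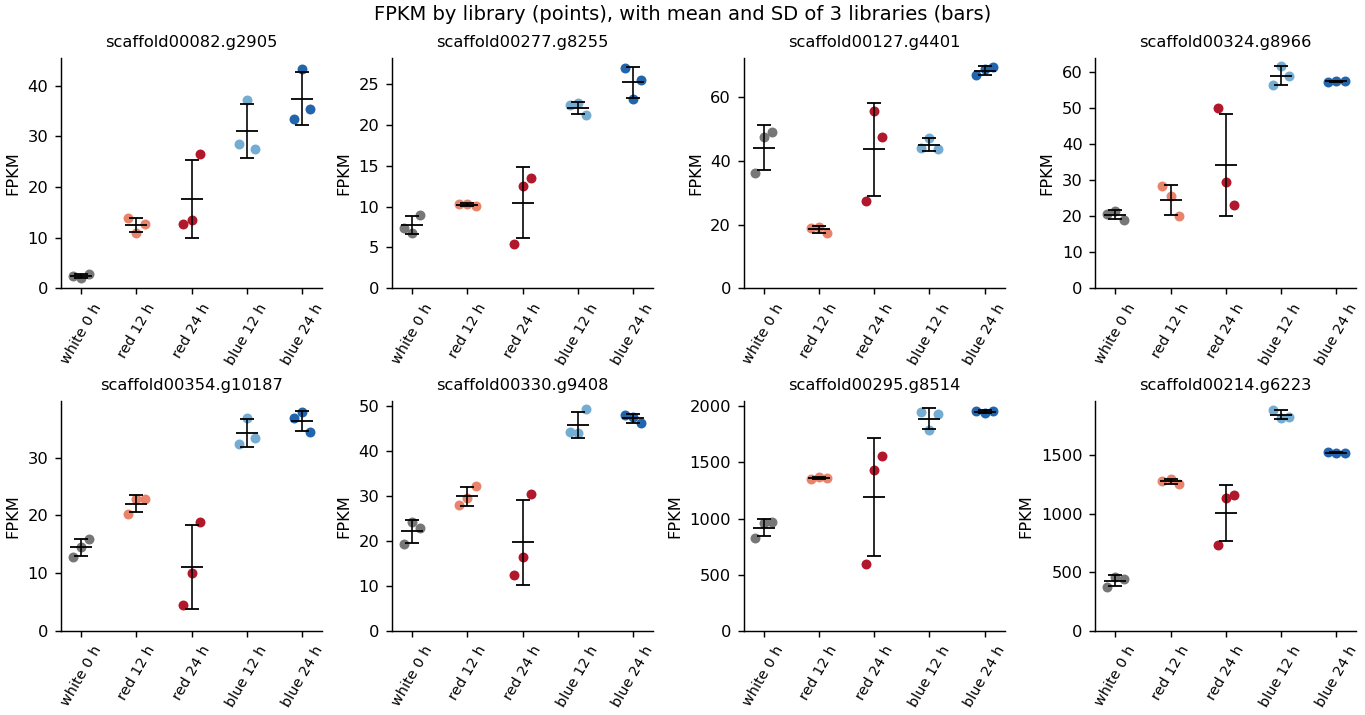
FPKM (y axis, from 0) of 8 members in each of the 15 libraries (points, by group on the x axis), with the mean and SD of 3 libraries (black bars). In each gene all 3 blue libraries lie above all 3 red libraries of the same hour, and red 24 h spreads most, as in scaffold00354.g10187 with 4.41, 10.0 and 18.8 FPKM.

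Over all members the median of the group means was 30.7 FPKM in white. It was 34.3 FPKM at 12 h and 32.4 at 24 h in red light, and 52.0 FPKM at 12 h and 55.5 at 24 h in blue light. Over all tested genes the same medians ran from 22.2 to 23.8 FPKM, so the members were also more abundant genes, as the floor of 10 FPKM favours. Averaged over the 6 blue libraries, 34 members held at least 100 FPKM and 12 held under 20. The replicates of the members were tight in red 12 h and in blue, looser in white and loosest in red 24 h. The median SD of log2(FPKM + 1) was 0.52 in red 24 h, against 0.18 in white, 0.09 in red 12 h and 0.06 to 0.08 in blue. White library 1 had a median of 20.3 FPKM over all models, against 24.7 and 25.0 in white libraries 2 and 3.

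Relative to white light, blue stood higher in most members and red was split. The mean of the 2 blue differences from white was above 0 in 92 of 110 members, with a median of 0.82, and ran from -0.88 to 3.28. The mean of the 2 red differences was above 0 in 64 members, with a median of 0.16, and ran from -1.68 to 2.07. Over all tested genes these medians were 0.10 for blue and 0.07 for red. Over the 6834 gene models that met the floor and the bound on white they were 0.28 for blue and 0.25 for red. The choice set red at least 0.4 below blue, so nothing is read from the lower red median of the members. Scaling the libraries to a common median, a common sum without the 50 most abundant genes, or common quantiles put the blue median of the members between 0.74 and 0.92 and that of all genes between -0.01 and 0.24. The red median of the members lay between 0.04 and 0.26 under these scalings, and 58 to 73 members were above white in red.

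In the fit across all genes, 77 members were called higher than white after 12 h of blue light, where 32.3% of all tested genes were, and 77 after 24 h (31.1%). Called lower than white were 5 members at 12 h (26.1%) and 3 at 24 h (23.9%) of blue light. In red 12 h, 35 members were called higher (32.8% of all tested genes) and 18 lower (24.6%), and in red 24 h 31 were called higher (28.8%) and 25 lower (30.1%). The share of members called higher in red was 31.8% at 12 h and 28.2% at 24 h, and the share called lower was 16.4% and 22.7%. The choice of members bounded each of these contrasts, favours high blue values and set red below blue. The blue and the red counts are therefore given as a description.

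The members differed in the place of the white level. In 56 members the white median was below all 4 colour medians, and their median differences from white were 1.18 in blue and 0.55 in red. In 15 members white was above all 4, with median differences of -0.23 in blue and -0.87 in red, so that both colours were lower than white and blue less so. In 13 members white lay between the red and the blue medians, with median differences of 0.34 in blue and -0.28 in red. The other 26 followed no such order. Among the 6834 eligible gene models, white was below all 4 medians in 53.5%, above all 4 in 20.3% and between red and blue in 1.30%, and 25.0% followed no such order. The shares of the members with white below all 4 and with no such order were close to these, and the share with white above all 4 was smaller. A white level between red and blue needs blue above red, which the choice of the members supplied.

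**Figure D3:**
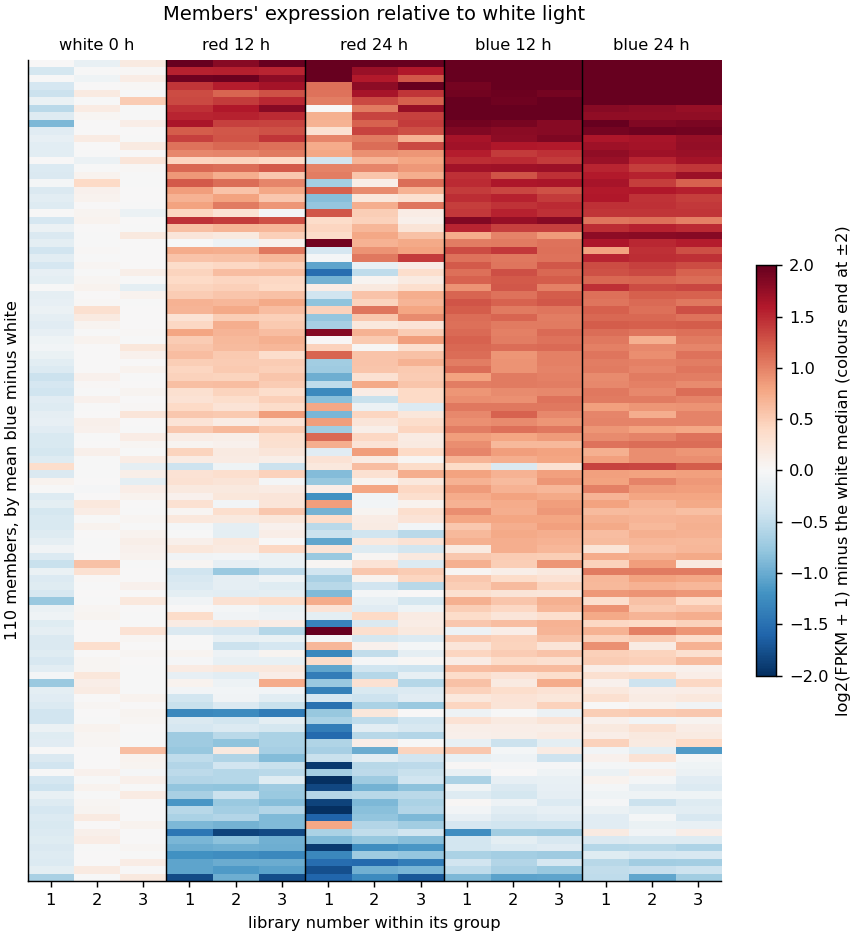
Expression of the 110 members (rows, ordered by the mean blue difference from white) in the 15 libraries (columns, by group), as log2(FPKM + 1) minus the white median of the gene. Colours end at ±2. The mean of the 12 h and 24 h differences from white is above 0 in 92 rows for blue and in 64 for red, and red 24 h library 1 differs from the other two red 24 h libraries in many rows.

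The highest blue values relative to white were in scaffold00082.g2905, described above, and in scaffold00330.g9192 (144338 to 145092, minus strand, 1 exon). In scaffold00330.g9192 the white libraries held 160.4, 205 and 209 FPKM, red 12 h 602, 607 and 591 and blue 12 h 910.1, 876 and 853. At 24 h its blue libraries held 1072, 1149 and 1164 FPKM and its red libraries 1222, 679.7 and 626. Red 24 h library 1 exceeded all blue libraries there, so red and blue overlapped at 24 h, while libraries 2 and 3 were below them.

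The lowest blue values relative to white were in scaffold00201.g6043 (1 to 536, plus strand, 1 exon) and scaffold00341.g9845 (355483 to 356857, minus strand, 1 exon). The first model starts at the first base of a scaffold with 3 models. Its white libraries held 16.9, 27.2 and 31.2 FPKM, red 12 h 7.11, 13.3 and 7.19 and blue 12 h 14.1, 12.3 and 12.6, and red and blue overlapped at 12 h. At 24 h its red libraries held 8.41, 10.8 and 7.71 FPKM and its blue libraries 18.8, 12.7 and 16.3, without overlap, and the lowest library rested on 10 fragments. In scaffold00341.g9845 white held 75.8, 99.2 and 87.0 FPKM, red 12 h 41.4, 39.2 and 41.0 and blue 12 h 61.1, 54.8 and 51.0. Its red 24 h libraries held 25.0, 44.0 and 45.7 FPKM and its blue 24 h libraries 61.8, 63.1 and 64.9, so both colours were below white at both hours and blue was the nearer.

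The change from 12 h to 24 h within a colour was no threshold of the choice, but it was not independent of it, since the choice used the medians of the same libraries and favoured genes that were low in red 24 h. The changes of the members are therefore a description. They are given from the limma fit on log2(FPKM + 1) over all 9601 genes, with Benjamini-Hochberg adjusted p-values that take no account of the choice. The SE of a gene comes from a spread shared by all 5 groups. It is the same in red and blue and also holds the scatter of red 24 h. In red light 19 members fell by this call (15.8% of all tested genes did) and 8 rose (12.8%). The falling members were 17.3% and the rising members 7.27% of the set. In blue light 5 rose (4.48% of all tested genes) and 2 fell (2.76%), which is 4.55% and 1.82% of the members. The median change of the members was -0.20 in red, where that of all genes was -0.08, and 0.03 in blue, where that of all genes was 0.01.

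The counts in red moved with the libraries used, and the falls furthest without a red 12 h library or red 24 h library 3. The blue and white libraries enter only through the shared estimate of the spread. Leaving out any 1 blue library gave 14 falls (13.5% to 13.7% of all tested genes) and 7 rises (11.2% to 11.5%). Leaving out 1 white library gave 15 to 18 falls (13.9% to 16.5%) and 7 rises (11.4% to 13.5%). Without red 12 h library 1, 2 or 3 in turn, 6, 5 and 3 members fell (9.04%, 7.15% and 6.93% of all tested genes) and 4 rose each time (8.27%, 6.73% and 6.54%). Without red 24 h library 1, 15 fell (13.6%) and 14 rose (17.2%), and the median change of the members was 0.00. Without red 24 h library 3, 35 fell (27.1%) and 12 rose (19.5%). The counts over all genes thus went down and up with those of the members. In blue light, leaving out red 24 h library 1, which enters only through the shared estimate of the spread, gave 17 rises (14.8% of all tested genes) and 6 falls (10.8%), and leaving out blue 12 h library 1 gave 3 rises (2.41%) and 1 fall (1.43%). The 2 falls in blue became 1 without any 1 of the blue libraries, of the red 12 h libraries or of white libraries 2 and 3. The scale mattered too: over all genes the red change had a median of -0.08 as deposited, 0.06 at a common median, where 17 members fell (15.5% of all tested genes) and 13 rose (20.8%), and -0.25 at a common sum without the 50 most abundant genes, where 30 fell (24.3%) and 4 rose (9.03%).

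Of the 7 members called over time in blue, 6 were also called in red and moved the same way, 4 up and 2 down. Over all tested genes 4.3% were called in both colours in the same direction, 413 of the 695 called in blue. scaffold00182.g5538 (511596 to 512444, plus strand, 1 exon) rose in both. Its red libraries held 12.5, 9.21 and 9.55 FPKM at 12 h and 22.8, 25.1 and 27.0 at 24 h, a log2 change of 1.19 ± 0.17 (SE; limma adjusted p = 0.000268). Its blue libraries held 14.6, 21.8 and 21.6 FPKM at 12 h and 40.8, 33.9 and 39.3 at 24 h, a change of 0.96 ± 0.17 (limma adjusted p = 0.00305). No 24 h library overlapped a 12 h library of its colour, and the white libraries, with 29.3, 38.3 and 35.8 FPKM, were near the blue 24 h level.

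The largest rise in blue was in scaffold00308.g8810 (255771 to 257219, minus strand, 2 exons), from 11.8, 7.08 and 11.2 FPKM at 12 h to 24.2, 23.8 and 21.9 at 24 h. The log2 change was 1.17 ± 0.19 (SE; limma adjusted p = 0.00174), and in red it was 0.71 ± 0.19 (limma adjusted p = 0.0166). Its blue 24 h libraries were above all libraries of the other 4 groups.

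The falls in both colours were in scaffold00295.g8686 (1074010 to 1075054, plus strand, 1 exon) and scaffold00308.g8815 (277115 to 279649, minus strand, 4 exons). In scaffold00295.g8686 the red libraries went from 273, 259 and 238 FPKM to 126, 136 and 106, a log2 change of -1.06 ± 0.12 (SE; limma adjusted p = 5.39e-05). The blue libraries went from 355, 330.1 and 349 FPKM to 208, 213 and 199, a change of -0.74 ± 0.12 (limma adjusted p = 0.00217). The white libraries held 77.4, 104 and 98.0 FPKM, so the gene stood above white at 12 h in both colours and came part of the way back. It is followed, after a gap of 54 nt, by the 29 gene models that close scaffold00295, whose median level was 50.7 FPKM in white light. In red and blue light that median lay between 1.17 and 7.58 FPKM. The member at the edge of this block thus lay above white in both colours where the median of the block lay below. In scaffold00308.g8815 red fell by 0.81 ± 0.15 (limma adjusted p = 0.00156) and blue by 0.54 ± 0.15 (limma adjusted p = 0.0380) on the log2 scale. Its blue libraries held 84.6, 85.7 and 85.3 FPKM at 12 h and 59.9, 57.5 and 58.0 at 24 h, without overlap. The blue call of this gene was lost in 12 of 23 alternatives (limma adjusted p up to 0.125). Among them was each fit without a blue or a red 12 h library or without white library 2 or 3. In a fit of only the 2 blue groups the limma adjusted p was 2.35e-05, and without red 24 h library 1 it was 4.14e-05.

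The largest rise in red was in scaffold00252.g7117 (278432 to 279273, plus strand, 2 exons), with 7.98, 7.69 and 6.38 FPKM at 12 h and 71.1, 12.9 and 11.5 at 24 h. Its blue 24 h libraries held 16.7, 20.9 and 19.3 FPKM, so red and blue overlapped at 24 h. Red 24 h library 1 stood far above the other two of its group and above every blue 24 h library. Without it the log2 change in red went from 1.48 ± 0.47 (SE, limma adjusted p = 0.0299) to 0.66 (limma adjusted p = 0.00956). The call was lost when any 1 of the red 12 h libraries was left out (limma adjusted p = 0.0619 to 0.0907). It was also lost in a fit of only the 2 red groups (limma adjusted p = 0.2137). The largest fall in red was in scaffold00354.g10187, by 1.12 ± 0.31 on the log2 scale (limma adjusted p = 0.0167). Without red 24 h library 1 it fell by 0.64 (limma adjusted p = 0.00520), and without red 12 h library 2 or 3 the call was lost (adjusted p = 0.0548 and 0.0563). The call of this gene was also lost in a fit of only the 2 red groups (limma adjusted p = 0.1885). Its change in blue was 0.09 ± 0.31 (limma adjusted p = 0.927), where the SE is that of the shared spread and not of the blue libraries alone. Whether red and blue changed differently over time was computed as an interaction in the same limma fit, added after the values were seen. It is the difference between the 24 h and the 12 h blue-minus-red values, the quantities on which the members were chosen, and nothing is read from it. It was called in 0 of the 110 members, while 0.74% of all tested genes were called with a larger and 1.54% with a smaller change in blue than in red. An unadjusted p under 0.05 was found for 11 members, or 10.0%, against 17.0% of all tested genes. Without red 24 h library 1 it was called in 4 members (7.82% of all tested genes) and without red 24 h library 3 in 8 (10.9%). In 5 members every red 24 h library was below every red 12 h library while every blue 24 h library was above every blue 12 h library, against 1.67% of all tested genes.

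**Figure D4:**
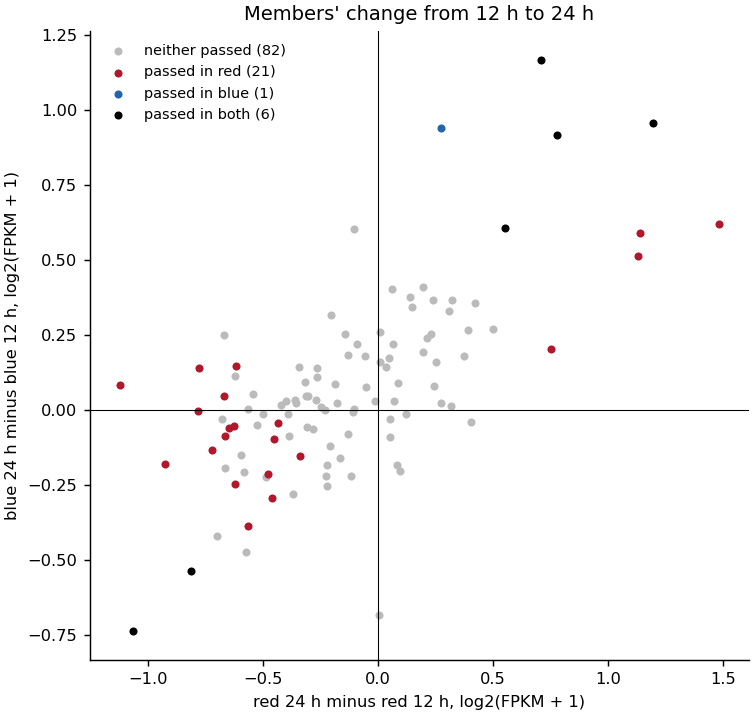
Change from 12 h to 24 h in red (x axis) and in blue (y axis) for the 110 members, as limma estimates on log2(FPKM + 1), coloured by whether the change passed in red (21 only), in blue (1 only), in both (6) or in neither (82). The 6 that passed in both lie in the quadrants where both colours rose or both fell.

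The members lay on 38 scaffolds, and 14 of them sat directly beside another member. They formed 6 runs, 2 of 3 genes and 4 of 2 genes. This is 12.7% of the members; among the 175 genes lower in blue at both hours by the same thresholds turned round, 8.57% had a neighbour of their set. The difference between these shares was not tested. The 2 runs of 3 had the same build, with a pair whose starts face away from each other across 94 nt and a pair whose ends meet within 1 or 9 nt.

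On scaffold00354 the run was scaffold00354.g10185 (577359 to 578509, minus strand, 1 exon), scaffold00354.g10186 (578604 to 579195, plus strand, 1 exon) and scaffold00354.g10187 (579205 to 583269, minus strand, 3 exons). The red 24 h libraries of scaffold00354.g10185 held 38.9, 45.8 and 34.4 FPKM against 81.2, 84.9 and 81.9 in blue. In scaffold00354.g10186 the red 24 h libraries held 19.2, 42.0 and 44.8 FPKM against 109.9, 98.4 and 94.9 in blue. Blue was above red in every library of all 3 genes at both hours. The next model before the run, scaffold00354.g10184, was no member: its blue-minus-red difference was 0.29 at 12 h and 1.00 at 24 h. The next model after it, scaffold00354.g10188, had 0.13 and -0.03.

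On scaffold00330 the run was scaffold00330.g9407 (700469 to 701438, plus strand, 1 exon), scaffold00330.g9408 (701440 to 707274, minus strand, 2 exons) and scaffold00330.g9409 (707369 to 709552, plus strand, 2 exons). The blue-minus-red differences at 12 h were alike in the 3 genes, 0.53, 0.57 and 0.59. At 24 h they were 0.66, 1.48 and 0.90. The models on either side, scaffold00330.g9406 and scaffold00330.g9410, had -0.17 and -0.06 at 12 h and 0.20 and -0.08 at 24 h. That a neighbour misses a threshold is what ends a run. No strand setting is given in the sources used here. The fragments of neighbours that lie within 1 or 9 nt may therefore be shared where transcripts run past their models, and this was not tested.

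**Figure D5:**
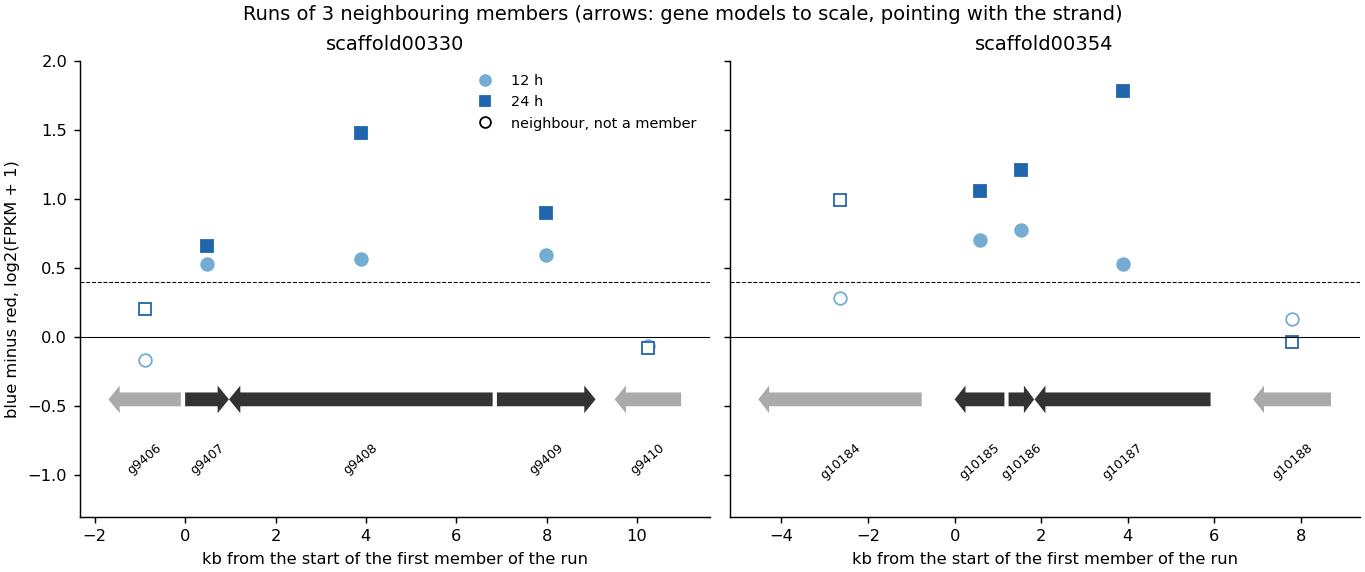
Blue minus red (y axis, difference of group medians of log2(FPKM + 1)) at 12 h (circles) and 24 h (squares) for the 2 runs of 3 neighbouring members (filled) and the model on either side (open), by distance in kb from the start of the first member. The 6 members lie above the dashed line at 0.4, up to 1.78 in scaffold00354.g10187, and of the 4 flanking models scaffold00354.g10184 exceeds it, at 24 h.

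The other runs were pairs on scaffold00081, scaffold00095, scaffold00104 and scaffold00355, with gaps of 7, 55, 55 and 115 nt. In the pair on scaffold00104 the second gene, scaffold00104.g3828 (175355 to 177784, plus strand, 2 exons), held 18.6, 35.8 and 44.0 FPKM in red 24 h and 99.5, 104 and 99.8 in blue 24 h, and its blue-minus-red difference was 1.45, against 0.67 in its neighbour. The 194 tested neighbours of members that were no members themselves had a median blue-minus-red difference of 0.06 at 12 h and 0.07 at 24 h, against -0.01 and 0.02 over all tested genes. They were above 0 in 56.7% at 12 h and 58.2% at 24 h, against 49.0% and 52.8% of all tested genes.

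Gene structure was set beside that of the gene models that could have been chosen. Single-exon models made up 41 of 110 members (37.3%) and 29.7% of the 6834 models that met the floor and the bound on white, and 5 members (4.55%) had 8 or more exons against 7.59%. Both groups had a median of 2 exons. The median exon length was 1548 nt in the members, from 295 to 5756 nt, and 1646 nt in the 6834 models. Plus-strand models numbered 53 among the members. A neighbouring model within 100 nt was found for 62.7% of the members and for 61.8% of all models. The scaffold with most members, scaffold00330, held 11 among 383 eligible models (2.87%), against 1.61% over all scaffolds. None of these shares was tested.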

How the data were processed

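Total RNA libraries of 15 samples in 5 groups of 3 were analysed. The authors deposited an FPKM value for every gene and library, with the positions of 9756 gene models of 1 transcript each. Cufflinks 2.0.4, TopHat and TopHat2 2.0.4 appear in the submitters' processing notes, and settings, strand handling and genome build are not given in the sources used here. One column name is repeated in the red 12 h table, and replicate 3 was identified by the sample name given beside its values.

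The members and all lists and tests were chosen with earlier results of these data known. Changes were tested with limma 3.58.1 in R 4.3.3 (lmFit, contrasts, eBayes with a trend, two-sided) on log2(FPKM + 1). A single fit of group means used all 15 libraries. It tested the 9601 genes that reached 1 FPKM in 3 or more of them, and p-values were Benjamini-Hochberg adjusted over all of them with a threshold of 0.05. The procedure was also run on simulated data in which a gene had the same spread in all 5 groups. The real groups differed in spread, so nothing is read from that run. A fold on this scale understates changes of low genes.

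Depth was recovered as FPKM times exon length less mean fragment length times a library constant. In models of 500 nt effective length and above, each library had 358 to 1864 values of up to 30 fragments, and 100% of these were whole within 0.1. Named members follow a rule: the largest blue-minus-red differences, the highest blue levels, the largest changes from white and over time, and runs of neighbouring members, with at most 2 rises and 2 falls per comparison. Same-numbered libraries of 12 h and 24 h deviated together with correlations of -0.01 to 0.15, so the numbers were not taken as pairs. Alternatives were other pseudocounts, filters, scalings, fits and leaving out each library. Tables were handled in Python 3.11.15 with pandas 2.3.3.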

Additional observations from a re-analysis of the deposited data

Results flagged for a closer look

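In the set 5 members had every red 24 h library below every red 12 h library and every blue 24 h library above every blue 12 h library. They were singled out after their values were seen. The difference between the blue and the red change was 0.917 on the log2 scale in scaffold00104.g3828, 0.764 in scaffold00026.g1053, 0.522 in scaffold00267.g7811, 0.408 in scaffold00330.g9643 and 0.397 in scaffold00247.g6857. The same pattern was found in 1.67% of all tested genes. No test of the difference is given, since the 5 were picked for it and it is made of the values on which the members were chosen. The red 24 h libraries of scaffold00104.g3828 held 18.6, 35.8 and 44.0 FPKM, those of scaffold00026.g1053 14.8, 27.8 and 29.1, those of scaffold00267.g7811 12.3, 12.7 and 14.1, those of scaffold00330.g9643 11.4, 13.0 and 11.5 and those of scaffold00247.g6857 133, 147 and 143. Groups of 3 libraries were too small to screen gene by gene for single outlying libraries, while over all models red 24 h library 1 stood apart.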

How the results depend on the processing

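The set held 110 genes as reported and 61 at a threshold of 0.5. It held 111 to 149 under the other pseudocount, the 3 scalings and group means, which shared 92 to 110 genes with it, and 104 to 163 with 1 library left out, which shared 94 to 110. Under quantiles, a common median and a common sum all 110 members stayed above 0 in blue minus red at both hours. The choice of the members favoured this, so nothing is read from it. The blue-minus-red threshold of the reported set was still met at 12 h by 99 members under quantiles, 110 at a common median and 107 at a common sum. At 24 h it was met by 102, 100 and 110 members in the same order.

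Over time in red, 8 rises and 19 falls became 13 and 17 at a common median (20.8% and 15.5% of all tested genes). At a common sum they became 4 and 30 (9.03% and 24.3%), and with quantile normalization 11 and 23 (15.2% and 18.4%). Array weights gave 36 and 48 (38.4% and 34.0%), and a fit of only the groups compared gave 1 and 1 (1.59% and 0.562%). In blue, 5 rises and 2 falls became 9 and 4 at a common median (6.34% and 5.90%), 4 and 1 at a common sum (4.04% and 3.15%), 7 and 5 with quantile normalization (7.09% and 5.98%), 26 and 15 with array weights (22.9% and 18.9%), and 28 and 15 in a fit of only the groups compared (20.5% and 16.9%). Leaving out 1 library gave 4 to 14 rises (6.54% to 19.5% of all tested genes) and 3 to 35 falls (6.93% to 27.1%) in red. In blue it gave 3 to 17 rises (2.27% to 14.8%) and 1 to 6 falls (1.41% to 10.8%). The interaction, whose alternatives were added after seeing the data, was called in 0 members as reported, in 2 with quantile normalization (4.42% of all tested genes), 1 at a common median (5.18%), 40 with array weights (44.1%) and 0 to 8 with 1 library left out (1.26% to 10.9%). The causes were not tested. The replicate number as a block gave 7 rises and 20 falls in red (12.7% and 17.2% of all tested genes) and 4 and 2 in blue (4.11% and 2.56%).

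The 8 changes over time picked by the naming rule kept their direction in all 23 alternatives run for each. Of these 8, 5 passed in all alternatives, and scaffold00354.g10187 in red passed in 20, scaffold00252.g7117 in red in 19 and scaffold00308.g8815 in blue in 11. The red changes of scaffold00308.g8810 and scaffold00308.g8815 were not among the 8, and their alternatives are not given. Values of few fragments, such as the white level of scaffold00082.g2905, are limited by depth.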
